A study of Rattus norvegicus with 69 samples.

Results

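Cd244l1, Htr1b and Gapt were 3 genes chosen because their blood transcript levels were among those most increased over the days of sampling in rats breathing filtered air, out of 14557 genes measured by a probe set with 1 gene symbol. Each was read by 1 probe set of the Affymetrix Rat Gene ST 2.1 array, identified as 17681972 for Cd244l1, 17854295 for Htr1b and 17745158 for Gapt. All 3 passed the filter on low variance, as did 13586 of the 14557 genes. Because the filtered air arrays chose the genes, the course in filtered air, and the differences from it in exposed rats without telemetry, are given as a description without a test. The tests concern exposed rats, telemetry rats and the spread between animals of the same group.

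The animals were male rats of the Sprague-Dawley strain, purchased at an age of 9 weeks, that inhaled the particles (PEPs) and gases emitted by a laser printer, or HEPA-filtered air, for 5 hours each day on up to 21 days. Whole blood RNA was hybridized with 1 array per sample. The exposed arm held 5 arrays on each of days 1, 5, 9, 13 and 17, 6 on day 21, and 4 on day 21 from rats that also carried an implanted radio telemetry system. The filtered air arm held 5 arrays on each of days 1, 5, 9 and 13, 4 on day 17, 6 on day 21, and 4 on day 21 with the telemetry implant. The labels state that the exposure experiment was carried out more than once but assign no array to a run, so the run cannot be told apart from the groups.

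Cd244, also called 2B4, is a receptor of the SLAM family that binds Cd48 on neighbouring cells and signals through small adaptors of the SAP family. It is known from natural killer (NK) cells, subsets of T cells, monocytes and basophils. Cd244l1 is a second rat gene of this kind. Htr1b is a serotonin receptor coupled to inhibitory G proteins and known best from neurons and blood vessels. In the mouse, Gapt is a transmembrane adaptor that binds Grb2, a link between receptors and Ras signalling, and is known from B cells and myeloid cells.

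The promoters of the 3 genes and of Cd244 are shown because Cd244l1 and Cd244 lie side by side and because the 3 genes were chosen for a shared course. The windows come from RefSeq on the rat build GRCr8 and span 300 bases, most of them before the gene start, 5' to 3' on the strand of the gene. Cd244l1 occupies chr13:86552199-86552498 (+ strand) and Cd244 chr13:86584653-86584952 (+ strand), and in RefSeq order Cd244l1 is followed by Cd244, Ly9, Slamf7, Cd48, Slamf1, Cd84 and Slamf6. In the first pair the capital marks the single mismatch.
Cd244l1: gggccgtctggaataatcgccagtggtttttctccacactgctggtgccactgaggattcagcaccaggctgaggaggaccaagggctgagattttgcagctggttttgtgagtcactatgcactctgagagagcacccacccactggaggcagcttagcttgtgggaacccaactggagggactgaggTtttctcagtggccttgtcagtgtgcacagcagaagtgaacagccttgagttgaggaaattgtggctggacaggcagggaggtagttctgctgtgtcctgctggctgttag
Cd244: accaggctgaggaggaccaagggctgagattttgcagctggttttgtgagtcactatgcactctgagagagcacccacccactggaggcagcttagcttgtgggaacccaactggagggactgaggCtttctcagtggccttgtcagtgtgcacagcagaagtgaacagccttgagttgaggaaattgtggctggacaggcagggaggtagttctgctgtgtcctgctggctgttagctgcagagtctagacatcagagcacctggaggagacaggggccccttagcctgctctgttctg
Bases 64 to 300 of the Cd244l1 window were identical to bases 1 to 237 of the Cd244 window at 236 of 237 positions (99.58%). The mismatch was T190C, counted from 1 at the 5' end of the Cd244l1 window and naming the Cd244l1 base first. No probe set was listed here for Cd244 and the probe sequences were not used, so whether the Cd244l1 probe set also reads Cd244 transcripts was not tested.

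The Htr1b window was chr8:91414766-91415065 (- strand) and the Gapt window chr2:43663153-43663452 (- strand). Capitals mark matches, on either strand, to AGGAAG in both windows, and to TTGCNNAA and TGANTCA in the Gapt window.
Htr1b: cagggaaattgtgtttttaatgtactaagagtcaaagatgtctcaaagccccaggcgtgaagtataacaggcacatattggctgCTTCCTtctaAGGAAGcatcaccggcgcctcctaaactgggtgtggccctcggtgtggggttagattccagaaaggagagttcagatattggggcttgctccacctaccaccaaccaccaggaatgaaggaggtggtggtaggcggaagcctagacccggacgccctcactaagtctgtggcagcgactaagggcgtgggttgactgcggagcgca
Gapt: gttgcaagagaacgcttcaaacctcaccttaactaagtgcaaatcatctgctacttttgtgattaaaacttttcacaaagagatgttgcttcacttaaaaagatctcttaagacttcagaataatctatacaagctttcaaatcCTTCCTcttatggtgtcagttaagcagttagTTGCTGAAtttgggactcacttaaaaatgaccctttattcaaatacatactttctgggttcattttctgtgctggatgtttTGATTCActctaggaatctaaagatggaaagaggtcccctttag
Matches to 7 motifs were searched on both strands. The ETS and PU.1 motif AGGAAG matched at 2 places in Htr1b and 1 in Gapt, and was present in 34.5% of the 33469 rat promoter windows. The AP-1 motif TGANTCA matched once each in Cd244l1, Cd244 and Gapt and was present in 7.33% of windows. The C/EBP motif TTGCNNAA matched once in Gapt and was present in 10.6% of windows. The E-box motif CANNTG, present in 72.1% of windows, matched at 2 places in Cd244l1, 3 in Cd244 and 1 in Gapt. None of the 4 windows held the RUNX motif TGTGGT, present in 17.3% of windows. None held the GATA motif AGATAA, present in 11.6%, and none held the letters TATAAA of the TATA box, present in 14.2%. No motif was shared by all 3 chosen genes.

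Levels are log2 intensities normalized by the robust multi-array average, so a difference of 1 is a 2-fold difference, and levels are not compared between genes. The mean over the 69 arrays was 5.68 for Cd244l1, 3.47 for Htr1b and 4.71 for Gapt. No array of any of the 3 genes fell below 1.80, the highest lower quartile of any array. The smallest values were 2.84 for Cd244l1, 2.12 for Htr1b and 1.89 for Gapt. Markers of blood were present on the arrays, with means per array of 5.67 to 11.05 for the platelet markers and 8.45 to 9.77 for the erythroid markers. Array quality weights ran from 0.229 to 1.63, and 4 arrays weighed under 0.5, namely exposed replicate 5 of day 1, exposed replicate 1 of day 5, filtered air replicate 2 of day 1 and filtered air replicate 1 of day 13. Their lower quartiles of 1.74 to 1.80 were the highest of all, and results that change without them are given both ways.

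On day 1 Cd244l1 stood at 5.49, 5.32, 4.68, 5.22 and 4.54 in the 5 PEPs-exposed rats, against 5.09, 4.12, 5.36, 4.05 and 5.34 in the 5 filtered air rats. On day 5 it was 2.84, 5.35, 5.66, 5.19 and 5.05 in exposed rats, against 5.44, 5.87, 5.96, 4.85 and 5.51 in filtered air. The 2 arms overlapped on both days, and the exposed value of 2.84 lay far below every other Cd244l1 value. On day 9 the exposed arrays read 5.52, 5.89, 5.08, 5.07 and 5.70, against 4.90, 5.71, 5.84, 5.55 and 5.38 in filtered air. On day 13 they read 5.70, 6.12, 6.34, 5.14 and 6.39, against 5.12, 5.90, 5.88, 6.60 and 6.13 in filtered air. On day 17 they read 5.90, 5.53, 4.85, 6.07 and 6.51, against 6.11, 5.00, 6.53 and 6.11 in filtered air. On these 3 days the arms covered nearly the same range. On day 21 the 6 exposed arrays had a lowest, median and highest level of 5.55, 5.67 and 5.80, against 5.85, 6.30 and 6.78 in filtered air. The day 21 arms did not overlap, and the exposed arrays were the tightest group for this gene (SD 0.10, n = 6). The 4 exposed telemetry rats read 6.81, 7.06, 6.01 and 6.84, against 6.37, 6.67, 5.86 and 6.93 in filtered air telemetry rats.

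Htr1b on day 1 was 3.13, 2.59, 3.003, 2.94 and 3.29 in exposed rats, against 3.09, 3.46, 3.42, 3.23 and 2.53 in filtered air. On day 5 it was 3.16, 3.88, 3.38, 3.04 and 4.33 in exposed rats, against 2.73, 2.43, 2.97, 2.22 and 2.12 in filtered air. The day 5 arms were separate, with every exposed array above every filtered air array, and the filtered air group of that day was the lowest of all 14 groups. On day 9 the exposed arrays read 2.93, 4.49, 2.82, 2.33 and 2.91, against 2.74, 4.0005, 3.86, 3.58 and 2.26 in filtered air. On day 13 they read 3.59, 4.36, 3.46, 3.18 and 3.10, against 2.75, 3.78, 2.72, 2.93 and 3.85 in filtered air. On day 17 they read 3.38, 4.36, 3.35, 3.42 and 3.22, against 4.06, 3.83, 4.16 and 4.25 in filtered air. A single exposed array, at 4.49 on day 9, 4.36 on day 13 and 4.36 on day 17, stood above the rest of its group, and on day 17 it alone exceeded all 4 filtered air arrays. On day 21 the lowest, median and highest levels were 2.65, 3.18 and 4.46 in exposed rats, against 3.67, 4.10 and 4.79 in filtered air. Of the 6 exposed arrays on day 21, those at 4.46 and 4.24 lay within the filtered air range and the other 4 lay below it. Telemetry rats read 3.55, 3.71, 4.42 and 4.06 when exposed, against 4.06, 4.07, 4.71 and 4.74 in filtered air.

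Gapt on day 1 was 3.44, 4.03, 5.13, 3.98 and 3.07 in exposed rats, against 3.96, 1.89, 4.73, 4.41 and 3.97 in filtered air. On day 5 it was 3.82, 4.55, 4.51, 4.01 and 4.77 in exposed rats, against 4.08, 4.70, 3.78, 3.73 and 3.29 in filtered air. The arms overlapped on both days, and the filtered air value of 1.89 was the lowest Gapt value of all arrays. On day 9 the exposed arrays read 4.99, 4.78, 4.86, 3.93 and 3.94, against 2.99, 3.99, 5.33, 4.80 and 4.63 in filtered air. On day 13 they read 4.45, 5.60, 5.24, 4.71 and 5.36, against 4.50, 5.22, 5.53, 5.42 and 5.24 in filtered air. On day 17 they read 4.64, 5.47, 5.54, 5.45 and 5.47, against 5.39, 4.90, 3.30 and 5.03 in filtered air. The value of 3.30 in filtered air on day 17 was low beside the rest of that day. On day 21 the lowest, median and highest levels were 4.11, 5.14 and 5.87 in exposed rats, against 4.86, 5.07 and 5.95 in filtered air. Telemetry rats read 5.87, 5.21, 5.42 and 5.43 when exposed, against 4.50, 4.96, 5.64 and 5.68 in filtered air. The arms overlapped on every day for this gene.

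**Figure D1:**
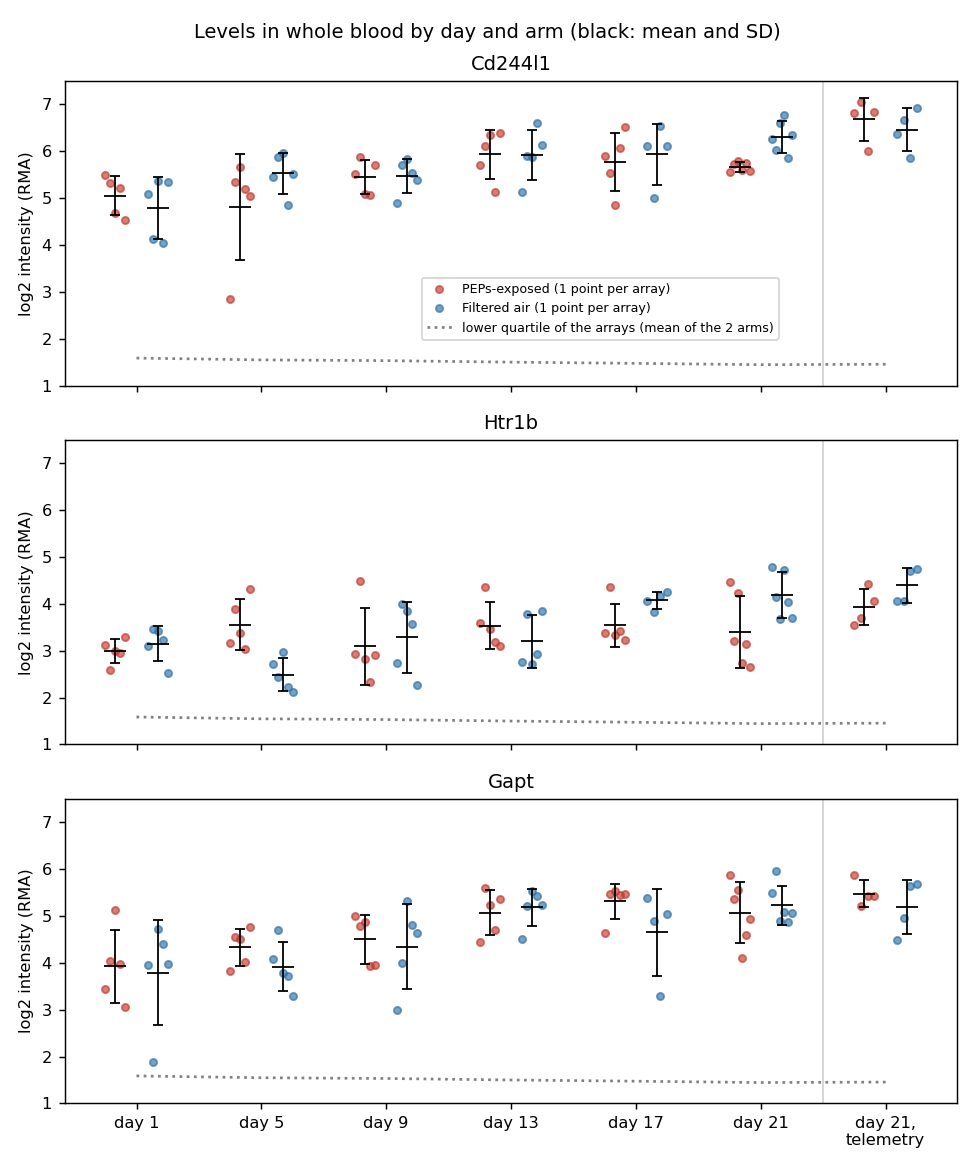
Log2 intensity (y axis) of Cd244l1, Htr1b and Gapt by day and arm (x axis), with 1 point per array, black bars for the mean and SD of each group, and a dotted line for the lower quartile of all probe sets. Cd244l1 separates the arms on day 21 (5.55 to 5.80 exposed, 5.85 to 6.78 in filtered air), Htr1b separates them on day 5, and Gapt overlaps on every day. The filtered air arrays in these separations chose the genes.

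Ordered by group mean, Cd244l1 ran from 4.79 in filtered air on day 1 to 6.68 in exposed telemetry rats, Htr1b from 2.49 in filtered air on day 5 to 4.39 in filtered air telemetry rats, and Gapt from 3.79 in filtered air on day 1 to 5.48 in exposed telemetry rats. Of the 13 steps between neighbouring groups in each order, 0 exceeded the larger of the 2 SDs for Cd244l1 (largest step 0.40) and 0 for Gapt (largest step 0.42). For Htr1b 1 step did, the lowest, between filtered air on day 5 (2.49) and exposed rats on day 1 (2.99), with a larger SD of 0.35. Steps between sorted means are small by construction, so these counts say which neighbours lay within their spread and nothing of the shape of the order.

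In filtered air, which chose the genes, Cd244l1 was higher on day 21 by 1.36 ± 0.28 (SE) than on day 1, a 2.57-fold difference, with group means of 6.31 ± 0.35 on day 21 and 4.79 ± 0.65 on day 1 (SD, n = 6 and 5). Htr1b was higher by 1.10 ± 0.32 (2.14-fold), with 4.19 ± 0.49 on day 21 and 3.15 ± 0.37 on day 1. Gapt was higher by 1.08 ± 0.34 (2.11-fold), with 5.23 ± 0.42 on day 21 and 3.79 ± 1.11 on day 1. These differences are weighted by array quality and so differ from the plain differences of the means. In filtered air the day 21 arrays lay wholly above the day 1 arrays for all 3 genes, as they did for 1.72% of the 34176 probe sets tested, a separation that the choice of genes used.

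Among 13586 genes the filtered air difference ranked Cd244l1 in place 3, Htr1b in place 9 and Gapt in place 11. Among the 289 genes that passed a test of the filtered air course, which 1.81% of probe sets did, 105 were higher on day 21, and Alox12e, a lipoxygenase gene, came first with 1.37. Cd244l1, Htr1b and Gapt held places 2, 3 and 4, and the gene just outside was Gnaz, a G protein alpha subunit, with 1.04. In the order of all 13586 genes the neighbours of Cd244l1 were Alox12e, Hpgds (1.29), Naip5 (1.24), Rpl7-ps3 (1.15) and Igsf7 (1.15). Those of Htr1b and Gapt were Rpl13 (1.10), Sec11c (1.08), Naip6 (1.07) and Akr1b8 (1.06). The same difference in exposed rats was 1.51 for Rpl13 and −0.44 for Akr1b8, so genes with nearly equal values in filtered air differed widely in exposed rats.

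In exposed rats, whose arrays did not choose the genes, Gapt and Cd244l1 rose over the 21 days and Htr1b did not pass the test. The slope of the 6 group means was 0.063 ± 0.015 log2 units per day (SE) for Gapt, equal to 1.25 over 20 days (limma adjusted p = 0.0033). For Cd244l1 it was 0.040 ± 0.012 per day, equal to 0.80 over 20 days (limma adjusted p = 0.0201). For Htr1b it was 0.018 ± 0.014 per day, equal to 0.35 over 20 days (95% interval −0.011 to 0.046 per day, limma adjusted p = 0.4105). Thus 2 of the 3 genes passed upward, where 8.82% of all 34176 probe sets passed upward and 6.41% downward. Among 13586 genes the exposed slope ranked Gapt in place 10, Cd244l1 in place 100 and Htr1b in place 2323. For comparison, the filtered air slopes were 0.059 ± 0.015 for Gapt, 0.063 ± 0.012 for Cd244l1 and 0.073 ± 0.014 for Htr1b. The difference between the slopes of the 2 arms was not tested, since the filtered air slopes chose the genes.

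Between its ends the exposed course gave a smaller set of calls. Gapt was higher on day 21 than on day 1 by 1.05 ± 0.35 (2.08-fold, limma adjusted p = 0.0454), with group means of 5.07 ± 0.65 on day 21 and 3.93 ± 0.78 on day 1 (SD, n = 6 and 5). Cd244l1 differed by 0.56 ± 0.28 (limma adjusted p = 0.2151), with 5.67 ± 0.10 on day 21 and 5.05 ± 0.41 on day 1, and Htr1b by 0.42 ± 0.33 (limma adjusted p = 0.4519), with 3.41 ± 0.77 on day 21 and 2.99 ± 0.26 on day 1. Of all probe sets 4.68% passed upward in this comparison. Every exposed Cd244l1 array of day 21 lay above every exposed array of day 1, as was the case for 3.23% of probe sets, and the plain difference of 0.62 gave p = 0.0022 in an exact 2-sided permutation test, the smallest this design allows (0.00216). The same exact test gave p = 0.0346 for Gapt and p = 0.3247 for Htr1b. An F-test over the 6 exposed days, which 4.71% of probe sets passed, gave limma adjusted p = 0.0562 for Gapt, 0.1418 for Cd244l1 and 0.6654 for Htr1b. The Gapt call between days 21 and 1 was lost in 7 of 11 fits that left out 1 array (0.88 to 1.33, limma adjusted p = 0.0187 to 0.1495), all but those without replicate 3 of day 1 or replicates 4, 5 or 6 of day 21, and without the 4 arrays of weight under 0.5 (0.95, limma adjusted p = 0.0944).

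The lower quartile of all intensities on an array, a measure of the array and not of a gene, also moved with the day. Its mean was 1.45 on day 21 and 1.60 on day 1 in exposed rats, and 1.44 on day 21 and 1.57 on day 1 in filtered air. With this quartile as a covariate the exposed slope was 0.044 per day for Gapt (limma adjusted p = 0.3707) and 0.012 for Cd244l1 (limma adjusted p = 0.8571), and 67 probe sets passed in either direction in place of 5208 (15.2%). The Cd244l1 slope also lost its call after cyclic loess (0.029, limma adjusted p = 0.1441), without the 4 arrays of weight under 0.5 (0.033, limma adjusted p = 0.0599) and without exposed replicate 3 of day 1 (limma adjusted p = 0.0533). The Gapt slope passed in all 31 fits that left out 1 array.

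**Figure D2:**
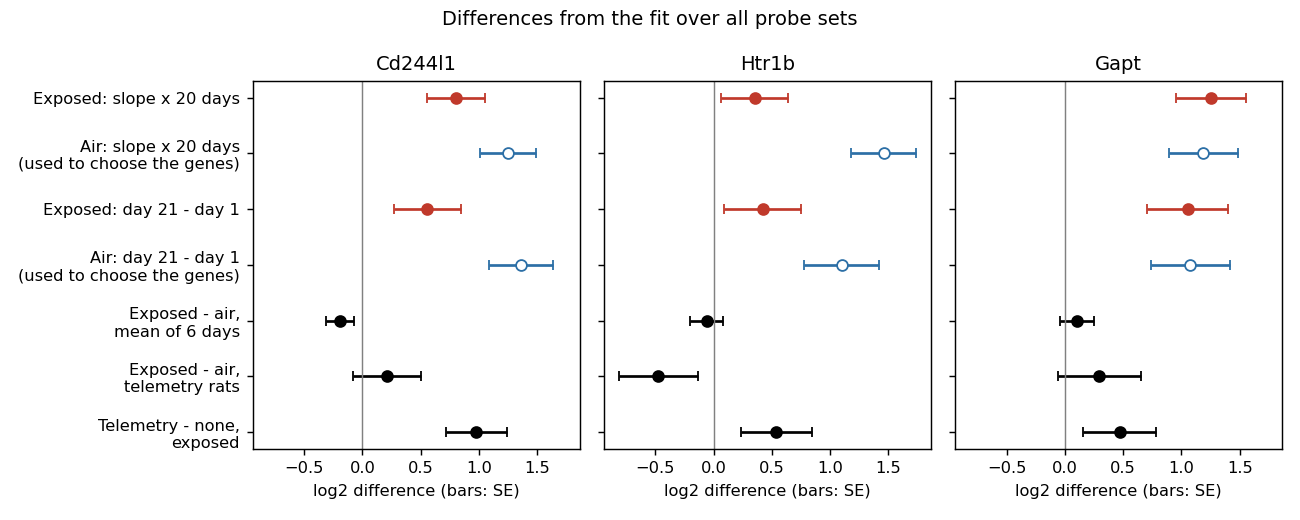
Log2 differences (x axis) for each gene with bars of 1 SE. Filled points are measured in arrays that did not choose the genes, except that the mean of 6 days also uses filtered air arrays, and open points are the filtered air course that chose them. The exposed 20-day values are 0.80 for Cd244l1, 0.35 for Htr1b and 1.25 for Gapt.

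The difference between exposed and filtered air rats is given as a description, because the filtered air arrays of each day entered the choice of genes. Averaged over the 6 days, exposed minus filtered air was −0.19 ± 0.12 (SE) for Cd244l1, −0.06 ± 0.14 for Htr1b and 0.10 ± 0.15 for Gapt. Leaving out 1 array at a time gave −0.23 to −0.15 for Cd244l1, −0.13 to −0.02 for Htr1b, the extremes being without exposed replicates 2 and 4 of day 9, and 0.02 to 0.16 for Gapt, without filtered air replicates 3 and 1 of day 17. Over all probe sets none passed this comparison in limma (0% of 34176, with 2108 at an unadjusted p under 0.05).

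On single days the difference for Cd244l1 was 0.18, −0.42, −0.07, −0.10 and −0.12 on days 1, 5, 9, 13 and 17, with SEs of 0.28 to 0.32, and −0.63 ± 0.23 on day 21. On day 21 every exposed Cd244l1 array lay below every filtered air array, a separation seen in 0.0819% of probe sets. For Htr1b the difference was 1.07 ± 0.37 on day 5 and −0.79 ± 0.27 on day 21, with −0.11, −0.24, 0.27 and −0.55 on days 1, 9, 13 and 17. The separation of the Htr1b arms on day 5, exposed above filtered air, was seen in 0.506% of probe sets. For Gapt the differences were −0.15, 0.44, −0.02, −0.17, 0.68 and −0.17 on days 1, 5, 9, 13, 17 and 21, with SEs of 0.29 to 0.39. Day 21 filtered air arrays were high for the chosen genes by their choice. A low filtered air group early in the course, as for Htr1b on day 5, also favours that choice. The shares over all probe sets thus do not say how rare these separations are among genes so chosen.

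Telemetry rats entered neither the filtered air course that chose the genes nor the exposed course, though all groups share 1 estimate of the spread. In telemetry rats the difference between exposed and filtered air was 0.21 ± 0.29 for Cd244l1, −0.48 ± 0.34 for Htr1b and 0.30 ± 0.35 for Gapt (limma adjusted p = 0.9996 for each). The 95% intervals were −0.37 to 0.79 for Cd244l1, −1.15 to 0.20 for Htr1b and −0.41 to 1.00 for Gapt. Leaving out 1 array moved the difference to between −0.66 and −0.31 for Htr1b (without exposed replicate 3 and exposed replicate 1), to between 0.10 and 0.45 for Gapt (without filtered air replicate 1 and filtered air replicate 3), and to between −0.0042 and 0.45 for Cd244l1 (without filtered air replicate 3 and exposed replicate 3). Exact permutation tests gave p = 0.4857, 0.1143 and 0.4571 for Cd244l1, Htr1b and Gapt, where the smallest possible p with 4 against 4 is 0.0286. Over all probe sets 2 passed (0.00585%).

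Among exposed rats of day 21, Cd244l1 was higher with the telemetry implant than without it by 0.98 ± 0.26, a 1.97-fold difference (limma adjusted p = 0.0375). The 4 telemetry rats averaged 6.68 ± 0.46 and the 6 rats without the implant 5.67 ± 0.10 (SD), and the arrays did not overlap, as was the case upward for 1.55% of probe sets. An exact 2-sided permutation test gave p = 0.0048, the smallest that 4 against 6 arrays allow. By limma 0.705% of probe sets passed upward and 0.518% downward. Htr1b differed by 0.54 ± 0.30 (limma adjusted p = 0.5095) and Gapt by 0.47 ± 0.32 (limma adjusted p = 0.6251), both without passing. In filtered air the same difference, telemetry minus no telemetry, was 0.14 ± 0.27 for Cd244l1, 0.22 ± 0.31 for Htr1b and 0.00 ± 0.33 for Gapt, as a description, since the filtered air arrays of day 21 chose the genes. The Cd244l1 call was lost with equal array weights (1.01, limma adjusted p = 0.3326) and in 8 of 10 fits that left out 1 array (0.86 to 1.22, limma adjusted p = 0.0119 to 0.1582), all but those without replicate 3 of either group.

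Markers of NK cells and monocytes, both known to carry Cd244, were higher in the same exposed telemetry rats. Of 8 NK markers tested, 6 rose with the implant and 0 fell, where 0.705% of all probe sets rose and 0.518% fell. The mean of the NK list lay between 6.42 and 7.06 in exposed telemetry rats and between 5.30 and 6.03 in exposed rats without the implant. Ncr1, an NK activating receptor, averaged 6.51 with the implant and 5.19 without it. Of 8 monocyte markers 5 rose and 0 fell, with list means of 7.07 to 7.96 with the implant and 6.38 to 7.05 without. Of the other lists, 1 of 9 T cell markers fell (Themis, −0.63 ± 0.16, limma adjusted p = 0.0233) and 1 of 10 eosinophil and basophil markers rose (Gata2, 0.77 ± 0.19, limma adjusted p = 0.0226), while none of the B cell, neutrophil, platelet, erythroid and dendritic cell markers passed. In filtered air the NK list mean also lay apart, between 6.15 and 6.57 with the implant and between 5.46 and 6.03 without it, while the monocyte list mean overlapped (7.21 to 7.47 with, 6.77 to 7.495 without) and the Cd244l1 difference was the 0.14 ± 0.27 given above. The filtered air arrays of day 21 were high for Cd244l1 by its choice, which lowers this difference of 0.14. It was therefore not compared with the difference of 0.98 in exposed rats. In whole blood, more or fewer cells of a type cannot be told apart from more or less RNA per cell, and the part of these cells in the Cd244l1 difference was not tested.

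**Figure D3:**
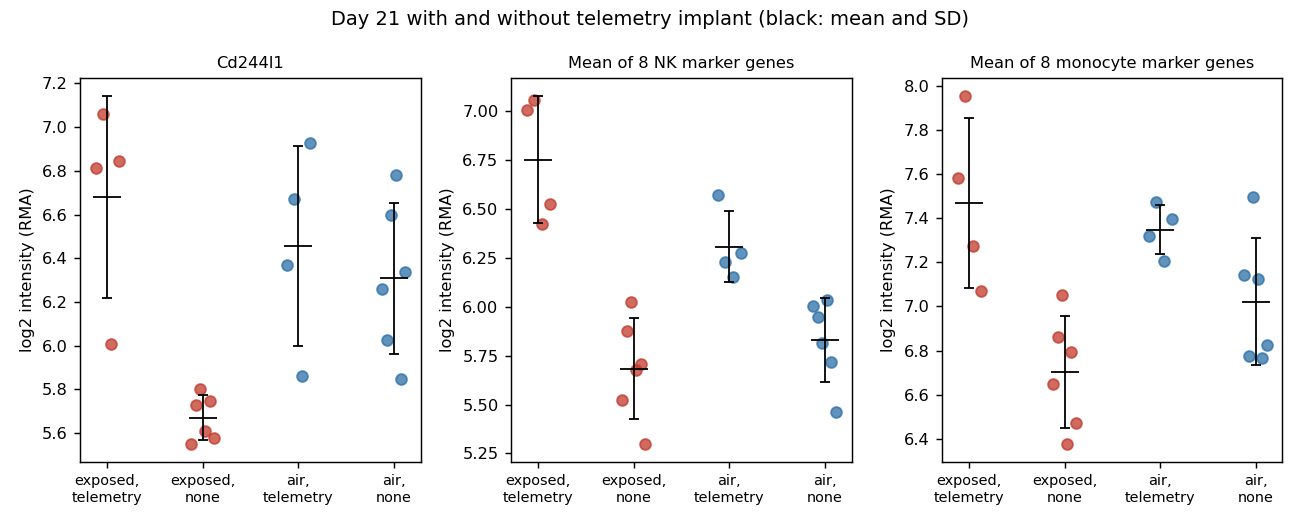
Log2 intensity (y axis) of Cd244l1, of the mean of 8 NK marker genes and of the mean of 8 monocyte marker genes in the 4 groups of day 21 (x axis), with 1 point per array and black bars for mean and SD. The y axes differ between panels and do not start at 0. Exposed telemetry rats lie above exposed rats without the implant in all 3 panels (Cd244l1 6.01 to 7.06 and 5.55 to 5.80).

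The other genes of each pathway came from lists of known pathway members. Their slopes come from the fit without the lower quartile as a covariate. With that covariate 67 probe sets passed in place of 5208, and the lists were not counted again. Of 18 SLAM family receptors and adaptors listed, 13 were tested, and 6 rose and 0 fell over the exposed days, with a median slope of 0.0151 per day against −0.00201 over all probe sets, of which 8.82% rose and 6.41% fell. Ptpn6, the phosphatase SHP-1 that several inhibitory receptors recruit, rose by 0.029 ± 0.006 per day (limma adjusted p = 0.0016), and Ly9, a SLAM receptor that is itself a neighbour of Cd244, by 0.025 ± 0.007 (limma adjusted p = 0.0088). Vav1, a signalling protein of lymphocytes, rose by 0.024 ± 0.007 (limma adjusted p = 0.0125), and Sh2d1a, which encodes the adaptor SAP, by 0.033 ± 0.010 (limma adjusted p = 0.0181). Cd48, the ligand of Cd244, and Sh2d1b, an adaptor of the SAP family, also passed upward, with 0.015 ± 0.005 and 0.038 ± 0.013 (limma adjusted p = 0.0273 and 0.0398), and were singled out after their values were seen. The slopes of Cd244l1 and of these genes were not tested against each other. With the implant in exposed rats 0 of the 13 rose and 1 fell, where 0.705% of all probe sets rose and 0.518% fell. The gene that fell was Ly9 (−0.65 ± 0.14, limma adjusted p = 0.0073), the opposite direction to Cd244l1. Its mean was 7.255 in exposed telemetry rats and 7.92 in exposed rats without the implant.

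The serotonin genes, many of which lay near the lower quartile of the arrays, gave counts near the shares over all probe sets. Of 21 receptors and genes of serotonin synthesis, uptake and breakdown, 17 were tested, 0 rose and 1 fell in exposed rats (8.82% and 6.41% of all probe sets), with a median slope of −0.00679 per day. The gene that fell was Htr2c, a receptor coupled to phospholipase C (−0.023 ± 0.007, limma adjusted p = 0.0187), whose mean level of 1.60 was near the lower quartile of the arrays. That quartile itself had a mean of 1.60 on day 1 and 1.45 on day 21 in exposed rats. Its part in the Htr2c slope was not tested. Htr5a (−0.019 ± 0.008, limma adjusted p = 0.0999), Htr5b (−0.016 ± 0.007, limma adjusted p = 0.14) and Htr1a (−0.013 ± 0.006, limma adjusted p = 0.158), all serotonin receptors, did not pass. The mean levels of Htr5b and Htr1a, 1.51 and 1.37, were also near that lower quartile. So were those of Htr3a, Htr2b, Htr1d, Tph1, Tph2, Htr3b and Slc18a1, from 1.39 to 1.84. A change in genes at that level could go unseen. The 1 gene of this list that passed for the implant in exposed rats was Slc6a4, the serotonin transporter that platelets use to take up serotonin, which fell (−1.03 ± 0.27, limma adjusted p = 0.0351) and was singled out after its values were seen. In that comparison 0.518% of all probe sets fell.

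Of 25 transmembrane adaptors and Grb2 pathway genes, 17 were tested, and 6 rose and 0 fell in exposed rats, where 8.82% of all probe sets rose and 6.41% fell, with a median slope of 0.0158 per day against −0.00201 over all probe sets. Trat1, an adaptor of the T cell receptor complex, rose by 0.042 ± 0.008 per day (limma adjusted p = 0.000227) and had the smallest p of the list, followed by Ptpn6, which also stands in the SLAM list. Sit1, an adaptor that recruits phosphatases in lymphocytes, rose by 0.026 ± 0.007 (limma adjusted p = 0.0059), and Sos2, a Ras exchange factor that binds Grb2, by 0.021 ± 0.005 (limma adjusted p = 0.0059). Grb2 itself was not among the genes tested. Every tested gene of this list had a slope below the Gapt estimate of 0.063, a gap that was not tested. With the implant in exposed rats Sos2 rose (0.43 ± 0.11, limma adjusted p = 0.0351) and Trat1 fell (−1.11 ± 0.17, limma adjusted p = 2.4e-05). In that comparison 0.705% of all probe sets rose and 0.518% fell.

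**Figure D4:**
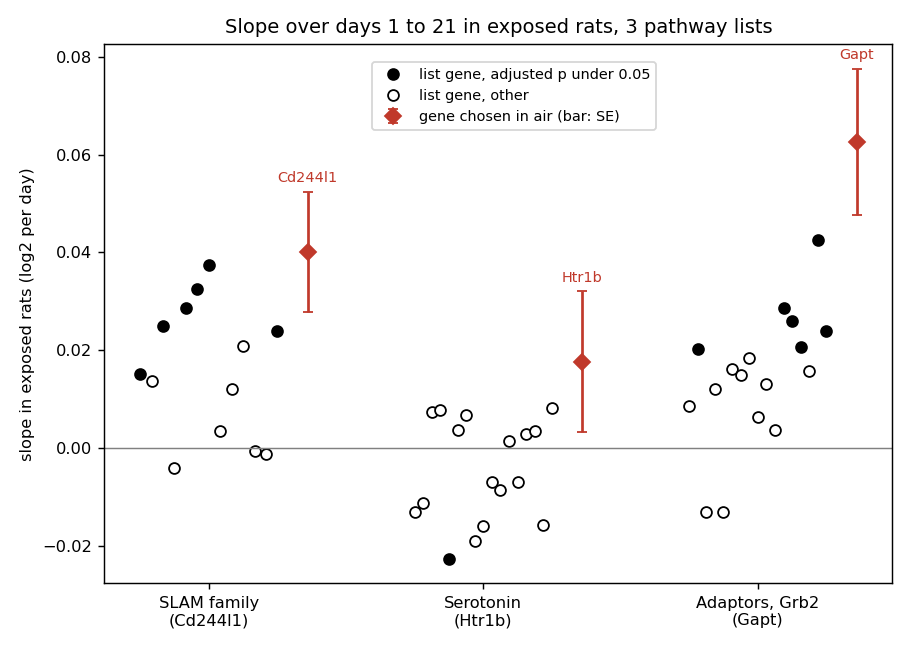
Slope over days 1 to 21 in exposed rats (log2 units per day, y axis) for the tested genes of 3 pathway lists (x axis), with filled circles for genes that passed and red diamonds with SE bars for Cd244l1, Htr1b and Gapt. The SLAM and adaptor lists have 6 rising genes each. The serotonin list, much of it near the lower quartile of the arrays, has 0, a count near the share over all probe sets.

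Blood cell markers moved over the exposed days too, when 8.82% of all probe sets rose and 6.41% fell. These slopes also come from the fit without the lower quartile as a covariate. Of the marker genes tested, 7 of 9 for T cells, 4 of 8 for NK cells and 2 of 8 for monocytes rose and none of these fell, with median slopes of 0.0229, 0.0255 and 0.0205 per day. Of 5 erythroid markers 4 fell and none rose (median −0.0375), and the list mean lay between 8.46 and 8.92 on day 21 and between 9.37 and 9.77 on day 1 in exposed rats. The T cell list mean lay between 7.94 and 8.26 on day 21 and between 7.38 and 7.81 on day 1. Of 10 eosinophil and basophil markers 1 rose, Il5ra, a subunit of the interleukin-5 receptor (0.069 ± 0.014, limma adjusted p = 0.000468), and 1 fell, Fcer1a (−0.021 ± 0.007, limma adjusted p = 0.0264). Fcer1a, Prg3, Cpa3 and Epx of this list, with mean levels of 1.52, 1.23, 1.37 and 1.69, stood at about the lower quartile of the arrays. Of 10 neutrophil markers 1 fell and none rose, the 1 being Ltf at a mean level of 1.51, also near that quartile. The lower quartile itself fell over the exposed days, and its part in the slopes of Fcer1a and Ltf was not tested. None of 6 B cell, 7 platelet and 5 dendritic cell markers passed. The counts of 1 of 10 lay near the shares over all probe sets. The part of the cell types in the courses of Cd244l1 and Gapt was not tested.

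Differences between rats of the same group were compared as deviations of 69 arrays from their group means. The choice of the genes rested on group means in filtered air, and used such deviations at most as the size of the spread. Deviations of Htr1b and Gapt went together weakly (Pearson r = 0.28, Spearman rank coefficient = 0.35, permutation adjusted p = 0.0578 and 0.0248), with r = 0.42 in exposed rats, 0.18 in filtered air and 0.32 without the 2 outermost arrays. Those of Cd244l1 and Gapt (r = 0.22, Spearman = 0.16, permutation adjusted p = 0.164 and 0.321) and of Cd244l1 and Htr1b (r = 0.15, Spearman = 0.14, permutation adjusted p = 0.34 and 0.363) did not pass. In all, 33 relations were computed and both coefficients adjusted together. The 3 genes thus shared little of their spread between rats.

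Cd244l1 followed the monocyte marker mean (r = 0.60, Spearman = 0.59, permutation adjusted p = 0.000132 for both, r = 0.71 in exposed rats, 0.60 in filtered air and 0.63 without the 2 outermost arrays). It ran against the lower quartile of the array (r = −0.59, Spearman = −0.48, permutation adjusted p = 0.00033 and 0.00123, r = −0.69 in exposed rats, −0.50 in filtered air and −0.56 without 2 arrays). With the B cell marker mean r was 0.53 and the Spearman coefficient 0.41 (permutation adjusted p = 0.0027 and 0.00947, r = 0.52 in exposed rats, 0.54 in filtered air, 0.39 without 2 arrays). With the NK marker mean r was 0.44 and the Spearman coefficient 0.39 (permutation adjusted p = 0.00363 and 0.0104, r = 0.38 in exposed rats, 0.51 in filtered air, 0.37 without 2 arrays). The dendritic (r = 0.43), T cell (0.39), neutrophil (0.33) and erythroid (−0.36) means passed by r as well (permutation adjusted p = 0.00173, 0.0248, 0.0271 and 0.0248). The Spearman coefficients of the T cell (0.21) and erythroid (−0.23) means did not pass (permutation adjusted p = 0.231 and 0.169). Without 2 arrays their r was 0.24 and −0.26. Of 12 relations of Cd244l1, 8 passed by r, so several cell types and the array measure moved with it at once.

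Gapt followed the neutrophil marker mean (r = 0.62, Spearman = 0.47, permutation adjusted p = 0.000132 and 0.00205, r = 0.59 in exposed rats, 0.64 in filtered air, 0.46 without 2 arrays). It also followed the eosinophil and basophil mean (r = 0.57, Spearman = 0.59, permutation adjusted p = 0.000132 for both, r = 0.55 in exposed rats, 0.63 in filtered air, 0.57 without 2 arrays). Its relation to the lower quartile (r = −0.43, Spearman = −0.21, permutation adjusted p = 0.0104 and 0.169) was −0.18 in exposed rats, −0.59 in filtered air and −0.27 without 2 arrays. With the monocyte mean r was 0.49 (permutation adjusted p = 0.0138), or 0.21 in exposed rats, 0.62 in filtered air and 0.25 without 2 arrays. With the platelet mean r was 0.51 (permutation adjusted p = 0.0445), or 0.03 in exposed rats, 0.66 in filtered air and 0.19 without 2 arrays. These 3 relations of Gapt were thus weaker without the 2 outermost arrays, and their Spearman coefficients did not pass. The NK mean (r = 0.37, permutation adjusted p = 0.0138) and the dendritic mean (r = 0.36, permutation adjusted p = 0.00589) passed too. The B cell mean did not pass (r = 0.25, permutation adjusted p = 0.139), with r = −0.18 in exposed rats and 0.59 in filtered air. Htr1b followed the eosinophil and basophil mean (r = 0.44, Spearman = 0.45, permutation adjusted p = 0.00472 and 0.00264, r = 0.51 in exposed rats, 0.34 in filtered air, 0.41 without 2 arrays) and the dendritic mean (r = 0.34, permutation adjusted p = 0.0271), and did not pass with the lower quartile (r = −0.08, Spearman = −0.11, permutation adjusted p = 0.596 and 0.506). The eosinophil and basophil mean includes Fcer1a, Prg3, Cpa3 and Epx, which stood at about the lower quartile of the arrays. The unadjusted permutation p of 1e-05, behind the adjusted value of 0.000132, is the smallest the 100000 permutations allow.

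**Figure D5:**
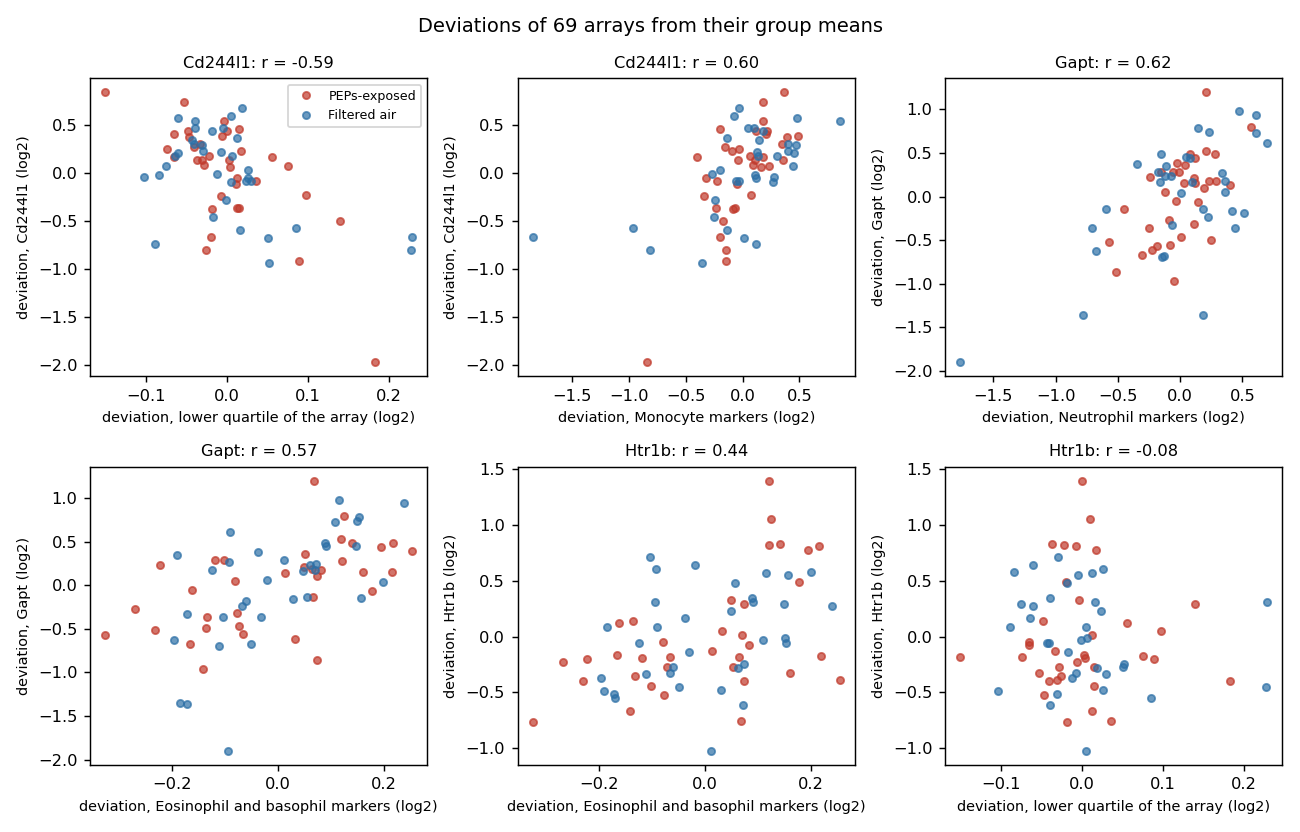
Deviations of each of 69 arrays from its group mean (log2), for a gene on the y axis and an array measure or marker mean on the x axis, in exposed and filtered air rats. Cd244l1 runs with the monocyte markers (r = 0.60) and against the lower quartile of the array (r = −0.59). Gapt runs with the neutrophil markers (r = 0.62) and with the eosinophil and basophil markers (r = 0.57). Htr1b runs with the eosinophil and basophil markers (r = 0.44). Each relation has wide scatter. The eosinophil and basophil mean includes genes at about the lower quartile of the arrays.

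The genes most alike were found in the same way and are a description, since they share arrays and array quality. By deviations over 69 arrays those closest to Cd244l1 were Appl1 (r = 0.69), Fbxo11 (0.68), Cx3cr1 (0.67), Itga4 (0.67) and Cd53 (0.67), where the 95th percentile of all genes was 0.49. Cx3cr1 is a chemokine receptor of monocytes and NK cells, Itga4 an integrin subunit of leukocytes and Cd53 a tetraspanin of leukocytes. Those closest to Gapt were Retnlg (r = 0.77), Lta4h (0.70), S100a11 (0.67), Cd24 (0.67) and Alox5ap (0.65), where the 95th percentile was 0.39. Retnlg is a secreted protein of rodent neutrophils, and Lta4h and Alox5ap act in leukotriene synthesis. Those closest to Htr1b were Abhd15 (r = 0.50), Plp2l1 (0.48), Klf7 (0.46), Ifitm3 (0.43) and Prox1 (0.43), where the 95th percentile was 0.23. In exposed rats, where 8.82% of all probe sets rose, Appl1, Fbxo11, Itga4, Cd53, Lta4h, Alox5ap and Klf7 of these genes passed upward. Cd53 rose by 0.033 per day (limma adjusted p = 0.000143), Alox5ap by 0.030 (limma adjusted p = 0.0253) and Klf7, a zinc finger transcription factor, by 0.035 (limma adjusted p = 2.46e-05). Cx3cr1, Retnlg, S100a11, Cd24, Abhd15, Plp2l1, Ifitm3 and Prox1 did not pass, and the slopes of Abhd15 and Prox1 were negative. Of the genes closest to Htr1b, Klf7 alone passed.

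Over the 14 group means, the genes most like Cd244l1 were Sos2 (r = 0.97), Vsig10l (0.96), Lrrc25 (0.96), Ifngr1 (0.95) and Trex1 (0.94). Sos2 also stands in the Grb2 pathway list, and Ifngr1 is a chain of the interferon gamma receptor. Those most like Gapt were Phf5a (0.94), Manba (0.93), Cxhxorf38 (0.92), Tbrg4 (0.92) and Il5ra (0.91), the last being the eosinophil and basophil marker that rose in exposed rats. Those most like Htr1b were Rnf144b (0.85), Padi2 (0.84), Hddc2 (0.84), Ivd (0.83) and Gna11 (0.83). The 95th percentile over all genes was 0.77 for Cd244l1, 0.72 for Gapt and 0.63 for Htr1b.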

How the data were processed

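Whole blood RNA of 69 rats was hybridized to Affymetrix Rat Gene ST 2.1 arrays in 14 groups taken from the labels. The authors deposited log2 intensities that the oligo package computed by robust multi-array averaging (R 3.4 per the submitters' notes, which also name limma), which corrects background, equalizes distributions between arrays and combines the probes of a set. The labels and the study's methods name different RNA isolation kits for blood. The number of arrays per group limits the precision, and p-values measure only the spread between these samples.

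Each array held 36685 probe sets, of which 14824 carried 1 gene symbol, 829 several and 21032 none, and the gene identifier of 14670 of those with 1 symbol was found in RefSeq. Probe sets with a variance under 0.05 (2509) were removed. Linear models for the remaining 34176 used limma 3.58.1 under R 4.3.3, with 1 mean per group, array weights by the gene-by-gene update and empirical Bayes. P-values were adjusted by Benjamini-Hochberg over all 34176, and a call needed an adjusted p under 0.05. The slope is a contrast of the 6 exposed group means with centred days. The fit was tested on simulated data.

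The 3 genes and the pathway and marker lists were chosen with earlier results of these data known. Other genes named were the 4 of each pathway list with the smallest unadjusted p for the exposed slope, the 5 closest to each gene by each measure of likeness (2 receptor, pseudogene or provisional symbols skipped) and their neighbours in the filtered air order. Alternatives concerned array weights, the variance filter, scaling, the lower quartile as a covariate, the prior variance, the arrays fitted, a replicate block and leaving out arrays. A replicate number shared between arms did not pair the arrays.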

Additional observations from a re-analysis of the deposited data

Results flagged for a closer look

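Of 42 groups of 4 to 6 arrays examined over the 3 genes, 5 held an array that lay far from the others of its group. Chance gives about 1 in 20 groups. Cd244l1 stood at 2.84 in exposed replicate 1 of day 5, with the other 4 arrays between 5.05 and 5.66. This array had the lowest mean of its group for the NK (5.03), T cell (7.18), B cell (6.51) and monocyte (5.42) markers. The same held for the neutrophil (5.33), eosinophil and basophil (2.47) and platelet (10.28) markers. Its erythroid mean (9.65) was the highest of its group, and its dendritic mean was not the lowest. Its lower quartile was 1.76 and its weight 0.286. Gapt stood at 1.89 in filtered air replicate 2 of day 1, with the others between 3.96 and 4.73. That array also had the lowest mean of its group for the neutrophil (3.80), monocyte (4.46) and platelet (5.67) markers. The same held for the NK (4.87), T cell (7.33), B cell (6.73) and dendritic (4.01) markers. Its erythroid mean (9.74) was the highest of its group, and its eosinophil and basophil mean was not the lowest. Its lower quartile was 1.80 and its weight 0.229. Whether these array measures have a part in either value was not tested.

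Htr1b stood at 4.49 in exposed replicate 2 of day 9, with the others between 2.33 and 2.93. On day 17 it stood at 4.36 in exposed replicate 2, with the others between 3.22 and 3.42. Gapt stood at 4.64 in exposed replicate 1 of day 17, with the others between 5.45 and 5.54. None of these 3 arrays was among the 4 with a weight under 0.5.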

How the results depend on the processing

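With the lower quartile of each array as a covariate, the exposed slope was 0.0117 for Cd244l1 and 0.0436 for Gapt, the difference between days 21 and 1 was −0.0039 for Cd244l1, a reversed sign of a difference without a call, and 0.68 for Gapt, and 67 probe sets passed the slope in place of 5208. After cyclic loess the count was 1986, the Cd244l1 slope 0.0288 and the Gapt difference 0.87. Without the 4 arrays of weight under 0.5, an alternative chosen after seeing the data, the Cd244l1 slope was 0.0333 and the Gapt difference 0.95. With equal weights the Gapt difference was 1.14 and the implant difference of Cd244l1 1.01. With only the arrays of the groups compared they were 1.05 and 0.98. The other Cd244l1 and Gapt values named here lost their call, and the cause was not tested. An exact permutation test of the plain Cd244l1 difference between days 21 and 1 (0.62) gave an unadjusted p of 0.0022, which is not on the scale of the adjusted threshold.

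Numbers did not pair arrays. Over 34 pairs of arrays with the same number, the correlation of deviations ran from −0.0762 to 0.249 and was over 0.1 in 1. With a replicate block the Cd244l1 implant difference was 0.98 (limma adjusted p = 0.0802), and no other call changed.

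Leaving out 1 array at a time gave ranges of 0.0359 to 0.0443 for the Cd244l1 slope, 0.0563 to 0.0726 for Gapt and 0.0111 to 0.0225 for Htr1b, with 3866 to 5879 probe sets passing. The difference between days 21 and 1 was 0.88 to 1.33 for Gapt, 0.45 to 0.67 for Cd244l1 and 0.24 to 0.56 for Htr1b. The implant difference in exposed rats was 0.86 to 1.22 for Cd244l1. The range of exposed group means was 1.16 to 1.61 for Gapt, whose F-test passed in 5 of 31 fits (without replicate 3 of day 1, 1 or 4 of day 13, 1 of day 17 or 4 of day 21). The telemetry exposure difference of Cd244l1 was −0.0042 to 0.45, below 0 only without filtered air replicate 3. Each gene had 1 probe set, so no other probe set could be tried.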
